A study of Homo sapiens with 12 samples.

Results

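The E2F transcription factors and the retinoblastoma proteins decide when a cell copies its DNA, and their transcripts were read here in HepG2 cells after toosendanin. They are 10 genes, E2F1 to E2F8, RB1 and RBL1, taken by gene symbol, and all 10 were found among the 28265 genes of the expression table. HepG2 is an established human hepatoma line, and toosendanin is a plant triterpenoid known for liver toxicity. The groups were toosendanin IP, toosendanin input, control IP and control input, with 3 libraries in each of the 4 groups and 12 in all. IP is RNA pulled down with an antibody against N6-methyladenosine (m6A), a methyl mark on mRNA, and input is the RNA before that step. The labels give no dose, no time and no vehicle, and do not say whether the 3 libraries of one group were grown as separate cultures.

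E2F proteins bind DNA together with a DP partner and switch on genes needed to enter and pass through S phase. The pocket proteins, RB1, RBL1 (p107) and RBL2 (p130), hold E2Fs in check until cyclin-dependent kinases phosphorylate them. E2F1, E2F2 and E2F3 are known mainly as activators, E2F4 and E2F5 as repressors that work with pocket proteins, E2F6 as a repressor that binds no pocket protein, and E2F7 and E2F8 as atypical repressors that need no DP partner. E2F7 and E2F8 are themselves E2F target genes that rise late in G1 and in S phase and then damp the other E2F targets.

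The atypical repressors E2F7 and E2F8 were the members with the largest fall after toosendanin, the activators E2F1 and E2F2 and the repressor E2F5 fell less, and E2F3, E2F4, E2F6, RB1 and RBL1 did not pass the test. A gene was called at an adjusted p under 0.05 from the DESeq2 test whose results the authors deposited. By this rule 5 of the 10 members were lower and 0 were higher, against 31.4% of 16552 tested genes called in either direction, 15.7% called lower and 15.7% called higher. By at least 2-fold, 3 members were lower, against 3.46% of tested genes. The median log2 fold change of the members in the authors' deposited table was -0.42, and that of all tested genes was -0.00023. In bulk RNA, fewer cells in a phase of the cycle and less of a transcript per cell cannot be told apart.

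Taken by role, 2 of 3 activating E2Fs were lower and 0 higher, 3 of 5 repressing E2Fs were lower and 0 higher, and 0 of 2 pocket proteins were called. Both the activating and the repressing class held members that fell and members that did not pass. Log2 fold changes in the authors' deposited table ran from -1.27 to 0.04 among activators, from -5.29 to 0.18 among repressors and from -0.16 to -0.11 in the pocket proteins.

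**Figure D1:**
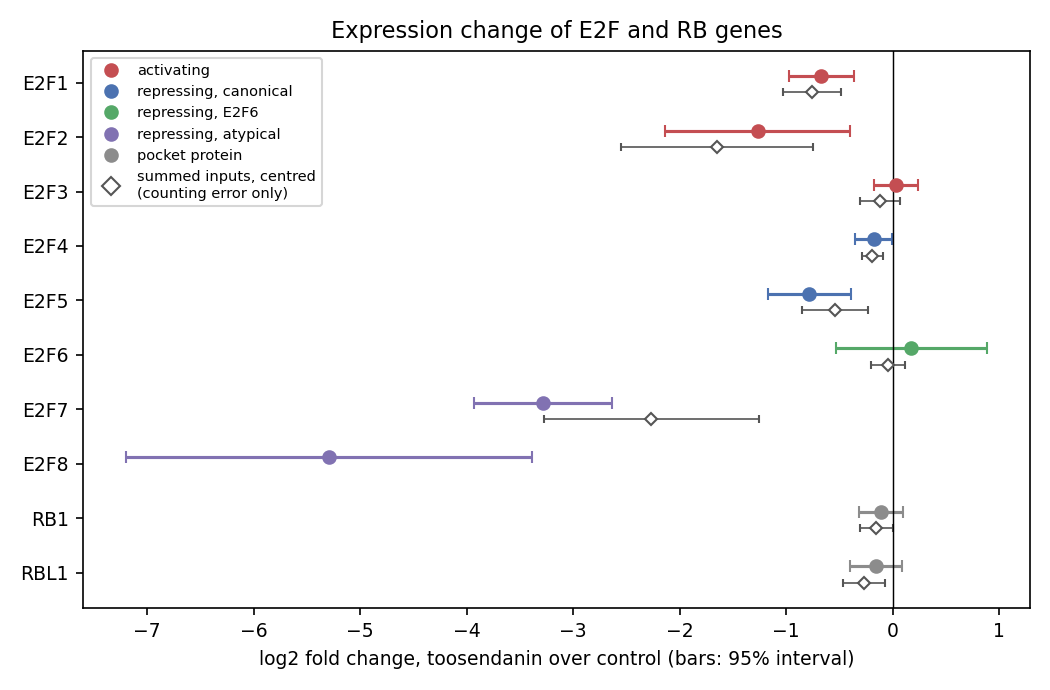
Log2 fold change of each member, toosendanin over control (x axis), by gene (rows, in order of name). Filled circles are the authors' deposited values and open diamonds the ratios of summed input reads, with 95% intervals; E2F8 at -5.29 and E2F7 at -3.28 lie farthest left, and E2F3, E2F6, RB1 and RBL1 have deposited intervals that span 0.

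E2F1, the best known activator, lies on chromosome 20 of GRCh38.p14 (33675477 to 33686385) and can drive both S phase entry and cell death. Its mean normalized count, a count scaled for sequencing depth and averaged over libraries, was 592 in the authors' deposited table, with a log2 fold change of -0.67 ± 0.16 (± is the standard error throughout; adjusted p = 0.000137). With equal numbers of libraries per condition, as the labels list them, that mean and fold change imply 457 normalized counts after toosendanin against 727 in control, a 1.59-fold lower level. Over its 2 m6A regions the summed input held 153 reads after toosendanin and 364 in control, and this ratio, centred on the median gene, gave a log2 change of -0.75 ± 0.14, the error here covering counting only. Both readings of E2F1 thus lay below 0, though they may rest on the same libraries and are not independent.

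E2F2, an activator close to E2F1 in sequence, lies on chromosome 1 (23505212 to 23531233). It was thinly counted, with a mean normalized count of 78.2 in the authors' deposited table, and stood at -1.27 ± 0.44 on the log2 scale (adjusted p = 0.0168). This implies 45.9 normalized counts after toosendanin against 110.4 in control. Its summed inputs held 12 reads after toosendanin and 53 in control, a centred log2 change of -1.65 ± 0.46. E2F2 minus E2F1 came to -0.60 with a 95% interval from -1.52 to 0.33, so the sizes of their falls were not resolved. Such differences between members take the errors as independent, are not adjusted for the number of pairs, and were formed with the values known. At a threshold of 0.01 on the adjusted p of the authors' deposited table, E2F2 was the 1 member no longer called.

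E2F3, the third activator (chromosome 6, 20401879 to 20493714), stood at 0.04 ± 0.11 in the authors' deposited table (adjusted p = 0.857), with a 95% interval from -0.17 to 0.24. The implied normalized counts were 669 after toosendanin and 653 in control. Its summed inputs held 362 reads after toosendanin and 554 in control, a centred log2 change of -0.12 ± 0.10. E2F1 minus E2F3 was -0.70 with a 95% interval from -1.08 to -0.33, and E2F2 minus E2F3 was -1.30 with an interval from -2.20 to -0.41. Both intervals lie below 0, so E2F3 stood above the other two activators by more than their combined errors.

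E2F4, a pocket-bound repressor of resting cells (chromosome 16, 67192155 to 67198918), had a value of -0.18 ± 0.09 in the authors' deposited table, with an unadjusted p of 0.0459 and an adjusted p of 0.119. It implied 1948 normalized counts after toosendanin and 2202 in control. The summed inputs of its single region, 1370 reads after toosendanin and 2202 in control, gave a centred log2 change of -0.19 ± 0.05. E2F5, its closest relative (chromosome 8, 85177154 to 85214518), fell: the authors' deposited table gave -0.78 ± 0.20 (adjusted p = 0.000491). E2F5 implied 174 normalized counts after toosendanin against 299.6 in control, a 1.72-fold lower level. Its summed inputs were smaller in effect, 122 reads after toosendanin and 250 in control, a centred log2 change of -0.54 ± 0.16. E2F5 minus E2F4 was -0.61 with a 95% interval from -1.03 to -0.18, and E2F5 minus E2F1 was -0.11 with an interval from -0.61 to 0.38.

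E2F6, which works with a Polycomb complex at germline and G1/S genes (chromosome 2, 11444375 to 11466161), stood at 0.18 ± 0.36 in the authors' deposited table (adjusted p = 0.788). The implied normalized counts were 632 after toosendanin and 559 in control. Its standard error was wide for its depth: 96.8% of 1152 genes with a mean within 1.2-fold had a smaller one, and their median was 0.14. The deposited interval from -0.53 to 0.88 leaves room for changes in both directions. Its summed inputs, 512 reads after toosendanin and 743 in control, gave a centred log2 change of -0.04 ± 0.08.

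E2F7 (chromosome 12, 77021251 to 77065569) was the member with the smallest adjusted p, 1.95e-21 in the authors' deposited table, at a log2 fold change of -3.28 ± 0.33. Its mean normalized count of 111 implies 20.7 after toosendanin against 201.3 in control, a 9.72-fold lower level. The single m6A region of E2F7 held 9 input reads after toosendanin and 61 in control, a centred log2 change of -2.26 ± 0.52. This second reading was also low but smaller in size than the deposited one. E2F8 (chromosome 11, 19224063 to 19241655) stood at -5.29 ± 0.97 in the authors' deposited table (adjusted p = 5.71e-07), with a 95% interval from -7.19 to -3.39. It was the thinnest member, with a mean normalized count of 31.4 that implies 1.56 after toosendanin and 61.2 in control. With so few reads left after toosendanin, the size of the E2F8 fall is known less well than its direction. E2F8 had no m6A region, so no summed input stood beside it.

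By the deposited values, the atypical repressors differed from the activators by more than their errors. By summed inputs, E2F7 at -2.26 ± 0.52 and E2F2 at -1.65 ± 0.46 stood closer, with errors of counting only. That difference was not tested, and E2F8 had no summed input. The differences that follow are of deposited values. E2F7 minus E2F1 was -2.61 with a 95% interval from -3.33 to -1.89, E2F7 minus E2F2 was -2.02 with one from -3.10 to -0.93, and E2F7 minus E2F3 was -3.32 with one from -4.00 to -2.64. E2F8 minus E2F1 was -4.62, with an interval from -6.55 to -2.69. Between them, E2F8 minus E2F7 was -2.01 with an interval from -4.02 to 0.003, which just includes 0. Among all 16552 tested genes ordered from the lowest log2 fold change in the authors' deposited table, E2F8 ranked 69 and E2F7 281, against 995 for E2F2, 1736 for E2F5 and 2058 for E2F1.

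RB1, the first tumour suppressor gene to be cloned and the main brake on activating E2Fs (chromosome 13, 48303751 to 48481890), stood at -0.11 ± 0.11 in the authors' deposited table (adjusted p = 0.507). The implied normalized counts were 1281 after toosendanin and 1379 in control. Summed inputs of 544 reads after toosendanin and 853 in control gave a centred log2 change of -0.15 ± 0.08. RBL1 (chromosome 20, 36996349 to 37095997), the pocket protein that rises in cycling cells and is known as an E2F target, stood at -0.16 ± 0.13 (adjusted p = 0.391 in the authors' deposited table). The implied normalized counts of RBL1 were 627 after toosendanin and 699 in control, and summed inputs of 316 reads after toosendanin and 537 in control gave -0.27 ± 0.10. E2F1 minus RBL1 was -0.51 with a 95% interval from -0.91 to -0.12. For both pocket proteins the deposited 95% intervals, from -0.31 to 0.10 in RB1 and from -0.40 to 0.09 in RBL1, do not reach a halving.

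**Figure D2:**
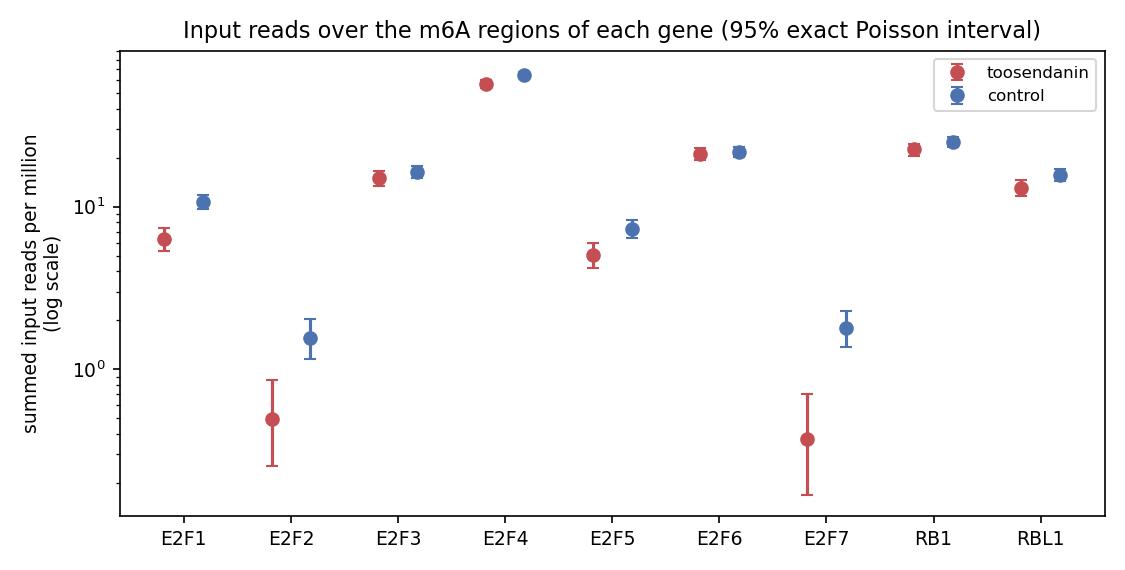
Input reads summed over the m6A regions of each gene, as RPM, reads scaled to the total over all regions (log axis), after toosendanin (left point) and in control (right point), with 95% exact Poisson intervals that cover counting error only. E2F7 had 0.371 RPM after toosendanin and 1.79 in control, E2F2 had 0.495 RPM after toosendanin and 1.55 in control, and E2F6 had 21.1 RPM after toosendanin and 21.8 in control.

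Several members are known to be driven by E2Fs, so the DNA around their starts is shown to let the letters of E2F sites be seen beside the changes. Windows from RefSeq (GRCh38.p14, 250 bases before to 50 after the gene start) were placed on the annotated gene start for 7 members. Both strands were searched for the strings TTTCGCGC, TTTGGCGC, TTTCCCGC and TTTGCCGC, and for the shorter TTGGCGC and TTCGCGC, which overlap the longer ones and were added after the windows were seen. Each stretch below runs 5′ to 3′ on the gene's strand from 140 bases before the start to 50 after it, with matches to any of these strings, on either strand, in capitals.
E2F1 promoter, chr20:33686336-33686525, minus strand: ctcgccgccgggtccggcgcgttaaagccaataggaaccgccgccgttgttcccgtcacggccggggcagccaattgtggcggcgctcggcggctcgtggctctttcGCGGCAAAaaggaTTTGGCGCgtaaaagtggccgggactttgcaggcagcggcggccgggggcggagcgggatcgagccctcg
E2F2 promoter, chr1:23531184-23531373, minus strand: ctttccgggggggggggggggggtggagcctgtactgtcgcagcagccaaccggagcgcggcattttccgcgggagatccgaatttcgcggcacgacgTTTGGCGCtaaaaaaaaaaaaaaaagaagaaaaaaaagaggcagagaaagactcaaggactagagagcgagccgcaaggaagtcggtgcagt
E2F3 promoter, chr6:20401739-20401928, plus strand: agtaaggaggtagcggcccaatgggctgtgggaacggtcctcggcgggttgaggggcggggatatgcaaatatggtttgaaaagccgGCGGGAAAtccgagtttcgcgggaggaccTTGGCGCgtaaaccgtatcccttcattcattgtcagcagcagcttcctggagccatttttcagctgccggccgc
E2F7 promoter, chr12:77065520-77065709, minus strand: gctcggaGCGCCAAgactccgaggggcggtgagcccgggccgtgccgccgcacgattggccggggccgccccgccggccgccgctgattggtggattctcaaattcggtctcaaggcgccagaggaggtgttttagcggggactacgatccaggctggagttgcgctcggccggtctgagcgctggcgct
RBL1 promoter, chr20:37095948-37096137, minus strand: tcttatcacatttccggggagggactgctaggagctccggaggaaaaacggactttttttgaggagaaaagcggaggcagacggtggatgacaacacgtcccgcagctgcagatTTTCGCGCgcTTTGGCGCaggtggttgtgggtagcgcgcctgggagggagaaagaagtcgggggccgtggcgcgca

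An 8-base string occurred in 4 of the 7 members' windows, against 3.31% of 35116 windows of this length. E2F1 and RBL1 held 2 matches each, E2F2 and E2F3 1 each, and E2F4, E2F6 and E2F7 none. A 7-base string occurred in E2F7 as well, 127 to 133 bases before its start on the other strand, and 5.06% of all windows held one. In E2F1 the match TTTGGCGC lay 13 to 20 bases before the start, and in RBL1 TTTCGCGC and TTTGGCGC lay 19 to 26 and 9 to 16 bases before it. Of the 5 members called lower, E2F1 and E2F2 held an 8-base match, E2F7 a 7-base match only, and E2F5 and E2F8 had no window. Of the members not called, RBL1 and E2F3 held matches, E2F4 and E2F6 held neither kind, and RB1 had no window at its start. A match is a run of letters and not a measured binding site.

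The same letters can be set beside the whole table as a description. Of 754 tested genes with an 8-base string in a window, 25.2% were called lower and 14.9% higher in the authors' deposited table, with a median log2 fold change of -0.09. Without it, 16.7% of 11382 genes were lower and 16.7% were higher, with a median of 0.002. The CHR letters TTTGAA, to which the MuvB complex is known to bind at mitotic genes, were held by 15.2% of windows. Of 1723 tested genes with them, 22.7% were lower and 12.7% higher in the authors' deposited table, against 16.3% lower and 17.2% higher of 10413 without. Among the members, E2F3 alone held TTTGAA in a window at its start, 60 to 65 bases before it. Windows rich in such letters also share base composition, which was not tested.

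The m6A table held 29 regions for 9 of the 10 members, with none for E2F8. Reads in a region were summed over libraries by the authors, so errors below cover counting and not the spread between libraries. Totals over all 46178 regions were 29094328 reads for toosendanin IP, 24253006 for toosendanin input, 42316089 for control IP and 34131862 for control input. By the FDR of the authors' deposited table at 0.05, 0 of the 10 member regions that carry an FDR were called, against 8.95% of 24688 such regions, and the smallest FDR was 0.308. Before adjustment, 2 of the 29 regions had a p under 0.05, against 15.6% of all regions. The other 19 member regions had a p but no FDR, and 21490 regions of the table carried no FDR. Summed over the 4 kinds of library, regions without an FDR had a median of 166 reads, and those with one 1347.

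With reads scaled to the totals, the median log2 IP over input was 0.0005 after toosendanin and 0.006 in control, against -0.02 after toosendanin and -0.04 in control over all regions. At least 2-fold was reached by 1 of the 29 member regions after toosendanin and 0 in control, against 8.37% of all regions after toosendanin and 9.75% in control. The 1 was the fifth region of E2F6, at 1.17 ± 0.53 after toosendanin and -0.38 ± 0.45 in control. Above 0 lay 15 member regions after toosendanin (51.7%) and 16 in control (55.2%), against 48.7% of all regions after toosendanin and 47.9% in control. The second region of RB1 was the best counted of those above 0, with 580 IP and 348 input reads after toosendanin and 1006 IP and 524 input reads in control. Its log2 IP over input was 0.47 ± 0.10 after toosendanin and 0.63 ± 0.08 in control, and 79.8% of all regions lay lower in control. Its deposited m6A change was -0.21 ± 0.12, with an FDR of 0.308 in the authors' deposited table. The first region of E2F3 stood at 0.74 ± 0.35 after toosendanin and 0.87 ± 0.19 in control, the highest but one of the member regions in control.

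E2F4 gave the tightest m6A value. Its region had 1293 IP and 1370 input reads after toosendanin and 1987 IP and 2202 input reads in control, and the authors' deposited change was -0.02 with a 95% counting interval from -0.16 to 0.12 (FDR = 0.894). E2F1 stood lower in antibody signal than most: its 2 regions had log2 IP over input of -0.55 and -0.71 after toosendanin, and of -0.87 and -0.80 in control. The better counted of them, with 72 IP and 98 input reads after toosendanin and 168 IP and 236 input reads in control, changed by -0.04 ± 0.27 (FDR = 0.961 in the authors' deposited table). The deposited change is not the difference of the log2 IP over input values given here, and its scaling is not stated. In this E2F1 region that ratio was -0.71 after toosendanin and -0.80 in control. For E2F4 it was -0.35 after toosendanin and -0.46 in control. Changes near 0 thus depend in sign on the scaling. E2F7 had 13 IP and 9 input reads after toosendanin and 86 IP and 61 input reads in control. Its m6A change of 0.007 in the authors' deposited table has an interval from -1.31 to 1.32, so at this depth neither a rise nor a fall of the mark by 2-fold could be detected or excluded.

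E2F2 had 11 IP and 7 input reads after toosendanin and 32 IP and 29 input reads in control in its better counted region, with a change of 0.43 ± 0.79 in the authors' deposited table. The better counted E2F5 region, with 95 IP and 86 input reads after toosendanin and 182 IP and 184 input reads in control, changed by 0.15 ± 0.26 (FDR = 0.791 in the authors' deposited table). RBL1 had 7 regions, of which 4 were higher and 3 lower by the deposited change, between -0.40 and 0.51. The fourth region of RBL1 counted as lower at -0.03, though its log2 IP over input was -0.01 after toosendanin and -0.04 in control. Its best counted region, 154 IP and 138 input reads after toosendanin and 233 IP and 231 input reads in control, stood at 0.14 ± 0.22 (FDR = 0.761 in the authors' deposited table). E2F6 had 6 regions, 3 higher and 3 lower, between -0.76 and 1.49, and the best counted of them stood at -0.15 ± 0.15 (FDR = 0.591 in the authors' deposited table).

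The 2 regions with an unadjusted p under 0.05 belonged to E2F3 and E2F6 and were singled out after their values were seen. The fifth region of E2F3 had 51 IP and 50 input reads after toosendanin and 86 IP and 37 input reads in control, a log2 IP over input of -0.23 ± 0.29 after toosendanin and 0.91 ± 0.28 in control. Its deposited change was -1.22 ± 0.40 (unadjusted p = 0.00248 in the authors' deposited table, with no FDR listed). All 6 E2F3 regions were below 0 in the authors' deposited table, from -1.22 to -0.14, and their summed reads, scaled to the totals, gave -0.33 with a 95% counting interval from -0.59 to -0.08. This sum was also singled out after the values were seen: the same interval spanned 0 for every other member with a region. Over regions with an FDR the m6A statistic had a robust SD of 1.53, wider than counting error alone gives, so the E2F3 interval may be too narrow. The fifth region of E2F6, with 27 IP and 10 input reads after toosendanin and 20 IP and 21 input reads in control, stood at 1.49 ± 0.70 (unadjusted p = 0.0328 in the authors' deposited table, with no FDR listed). Neither region can be placed along its transcript here.

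**Figure D3:**
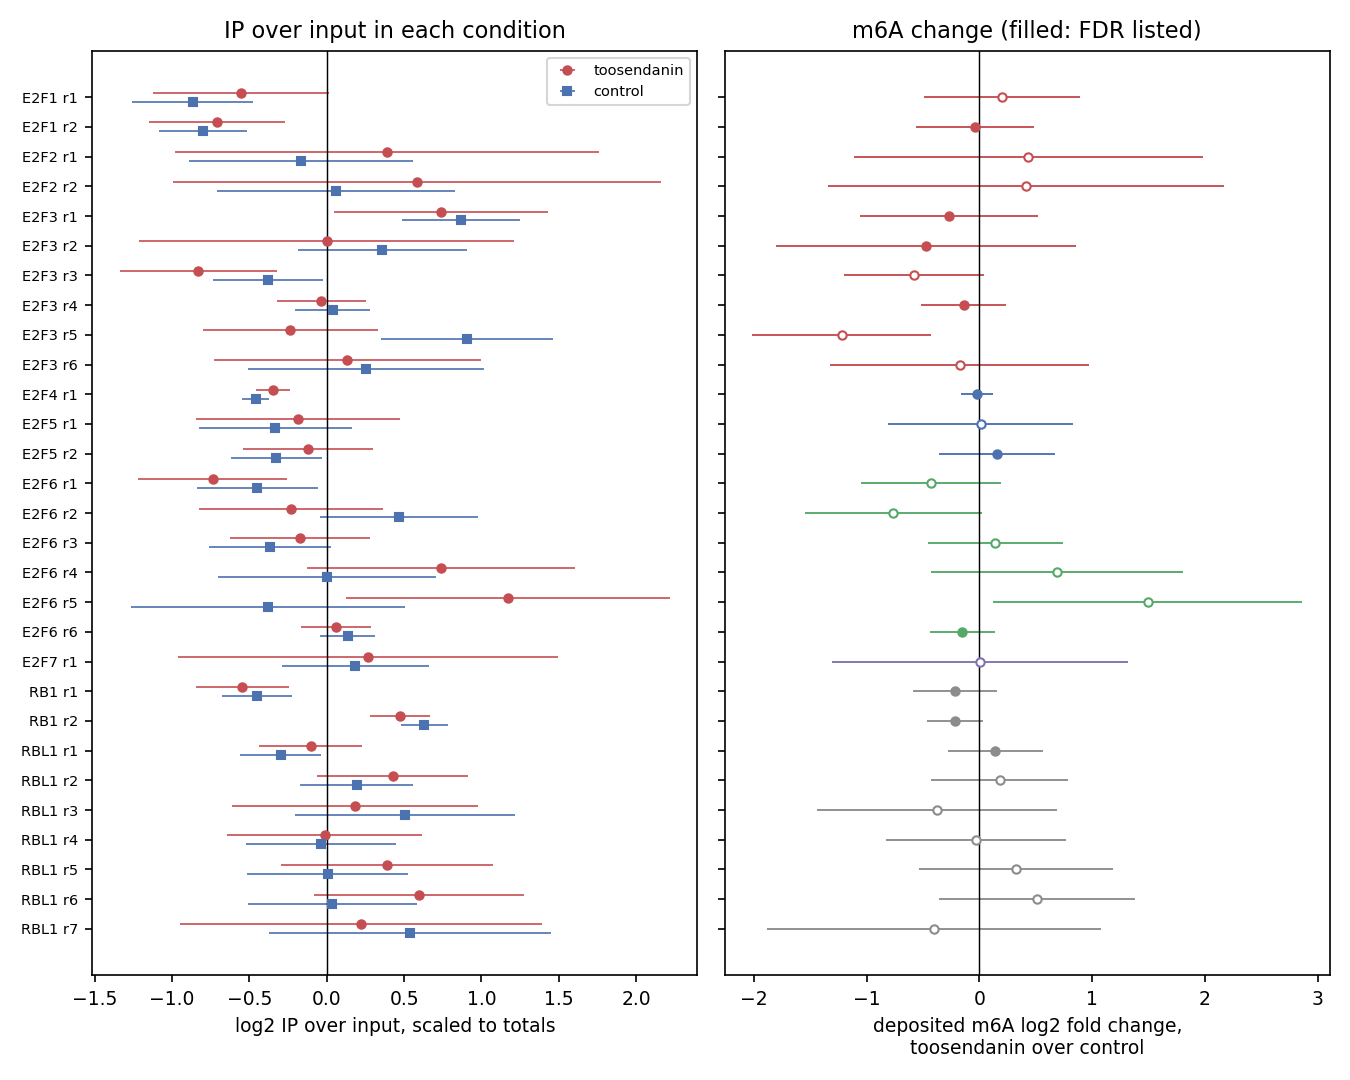
Left, log2 IP over input of the 29 member regions (rows; r1, r2 and so on number the regions of a gene) after toosendanin (circles, upper) and in control (squares, lower); right, the authors' m6A log2 fold change, filled where an FDR is listed. Bars are 95% counting intervals; those on the right lie clear of 0 in the fifth region of E2F3 (-1.22) and the fifth of E2F6 (1.49).

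The counts of partners, regulators and targets that follow are set against all tested genes, of which 31.4% were called, 15.7% lower and 15.7% higher, and 3.46% were lower by at least 2-fold. Of 3 tested DP and pocket partners, 1 rose. TFDP1, the main DP partner, was 0.20 ± 0.08 higher in the authors' deposited table, with an adjusted p of 0.0488 just under the threshold. TFDP2 stood at 0.02 ± 0.17 and RBL2, the pocket protein of resting cells, at 0.17 ± 0.08 (adjusted p = 0.0944) in the authors' deposited table. TFDP3 had a mean normalized count of 0.476 and no adjusted p. Of 8 genes of the MuvB core and its partners, 3 fell and 0 rose. In either direction 37.5% called is near the 31.4% of all tested genes. All 3 calls were lower, against 15.7% of all tested genes, and by at least 2-fold, against 3.46%. The 3 were partners of the core in cycling cells: MYBL2 at -2.22 ± 0.11, FOXM1 at -2.09 ± 0.17 and MYBL1 at -2.61 ± 0.47 in the authors' deposited table. The MuvB core itself, LIN9, LIN37, LIN52, LIN54 and RBBP4, did not pass, with values from -0.67 (LIN9, adjusted p = 0.0853) to 0.25 (LIN54) in the authors' deposited table. This core binds E2F4 or E2F5 with RBL1 or RBL2 to form the repressor DREAM, or MYBL2 and FOXM1 to activate mitotic genes.

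Upstream, among 10 kinases and cyclins that phosphorylate pocket proteins, 5 fell and 2 rose, against 15.7% of all tested genes in each direction, so the number that rose was near that of all genes. CCNA2 and CDK1, which act in S phase and mitosis, fell, at -3.25 ± 0.23 and -2.88 ± 0.23 in the authors' deposited table. The G1/S cyclin CCNE2 at -1.17 ± 0.42, its kinase CDK2 at -0.94 ± 0.16 and CDK6 at -0.32 ± 0.12 fell as well in the authors' deposited table. The D cyclin CCND3 at 0.55 ± 0.20 and its kinase CDK4 at 0.26 ± 0.06 rose in the authors' deposited table. CCNE2, CCND3 and CDK6 were not called at an adjusted p under 0.01. CCNE1 at 0.08 ± 0.08, CCND1 at -0.13 ± 0.06 and CCND2, with a mean normalized count of 5.11, were not called in the authors' deposited table. CCNE1 and CCNE2, both known E2F targets, thus stood on different sides of the threshold, a difference that was not tested. Among 6 tested CDK inhibitors 1 was called higher and 2 lower in the authors' deposited table, the share higher being near the 15.7% of all tested genes: CDKN1A (p21) at 0.45 ± 0.11, CDKN1B (p27) at -0.53 ± 0.09 and CDKN2C (p18) at -0.98 ± 0.21. CDKN2A at -0.19 ± 0.29, CDKN2B at 0.53 ± 0.23 and CDKN2D at 0.12 ± 0.27 were not called in the authors' deposited table, and CDKN1C was listed at 0. None of the 6 was called at 2-fold (0).

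Of 11 genes for E2F1 turnover and coregulation 4 fell and 1 rose, 45.5% called against 31.4% of all tested genes, and at 2-fold the 1 called was SUV39H1. SUV39H1, a histone methyltransferase that RB1 recruits, had a value of -1.20 ± 0.23 in the authors' deposited table, CCNF, whose ubiquitin ligase marks activator E2Fs for degradation, at -0.76 ± 0.19 and the F-box protein SKP2 at -0.70 ± 0.14. HCFC1 was lower by a small amount, at -0.20 ± 0.08, and FZR1, an activator of the anaphase-promoting complex, was 0.27 ± 0.11 higher in the authors' deposited table. HCFC1 and FZR1 were not called at an adjusted p under 0.01. The other 6, among them the acetyltransferases EP300 and KAT2B, did not pass. Of 12 subunits and partners of the Polycomb complex of E2F6, HDAC2 at -0.56 ± 0.09 fell and MAX at 0.45 ± 0.11 rose in the authors' deposited table, and 10 did not pass. These 16.7% called lie below the 31.4% of all tested genes, and 0 were called at 2-fold. The germline genes that E2F6 is known to keep silent were at or near 0: 4 of 7 were listed at 0, and STAG3, TUBA3D and SMC1B had mean normalized counts of 23.2, 8.39 and 3.92 and were not called in the authors' deposited table. TUBA3C and TUBA3D are near-identical copies, so their counts are uncertain.

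Downstream, genes known as E2F targets at the start of S phase mostly fell. Among 40 such genes, 37 fell and 0 rose, against 15.7% of all tested genes lower, and 23 fell by at least 2-fold, against 3.46%. Their median in the authors' deposited table was -1.18. RRM2, which makes deoxynucleotides, stood at -3.04 ± 0.11, the chromatin factor ATAD2 at -1.54 ± 0.06 and the helicase subunits MCM7 at -1.45 ± 0.07, MCM3 at -1.11 ± 0.06 and MCM2 at -1.39 ± 0.09 in the authors' deposited table, with the thymidylate synthase TYMS at -1.11 ± 0.08. SLBP at -0.18 ± 0.10 and CHAF1B at -0.22 ± 0.16 were among those not called in the authors' deposited table. Of 30 targets of the G2 and M phases, which MuvB complexes are known to control, 30 fell, 29 of them by at least 2-fold, against the same 15.7% and 3.46% of all tested genes, with a median of -3.28 in the authors' deposited table. TOP2A at -3.76 ± 0.07, CENPF at -3.64 ± 0.10, PRC1 at -2.86 ± 0.09, PLK1 at -3.32 ± 0.11, TPX2 at -2.23 ± 0.08 and ASPM at -3.96 ± 0.15 had the smallest adjusted p in the authors' deposited table.

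The promoter letters of these lists can be counted in the same way. Of 33 G1/S genes with a window 60.6% held an 8-base E2F string, against 3.31% of all windows, and 9.09% held TTTGAA. Of 25 G2 and M genes with a window 8.00% held an 8-base string, and 76.0% held TTTGAA, against 15.2% of all windows. The lists hold genes already known as E2F targets or as under MuvB control, a knowledge that may rest in part on these letters. The split in letters may therefore follow from the choice of genes, and it uses no expression value. The lists were also drawn up with earlier results of the data known, so their counts are a description.

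**Figure D4:**
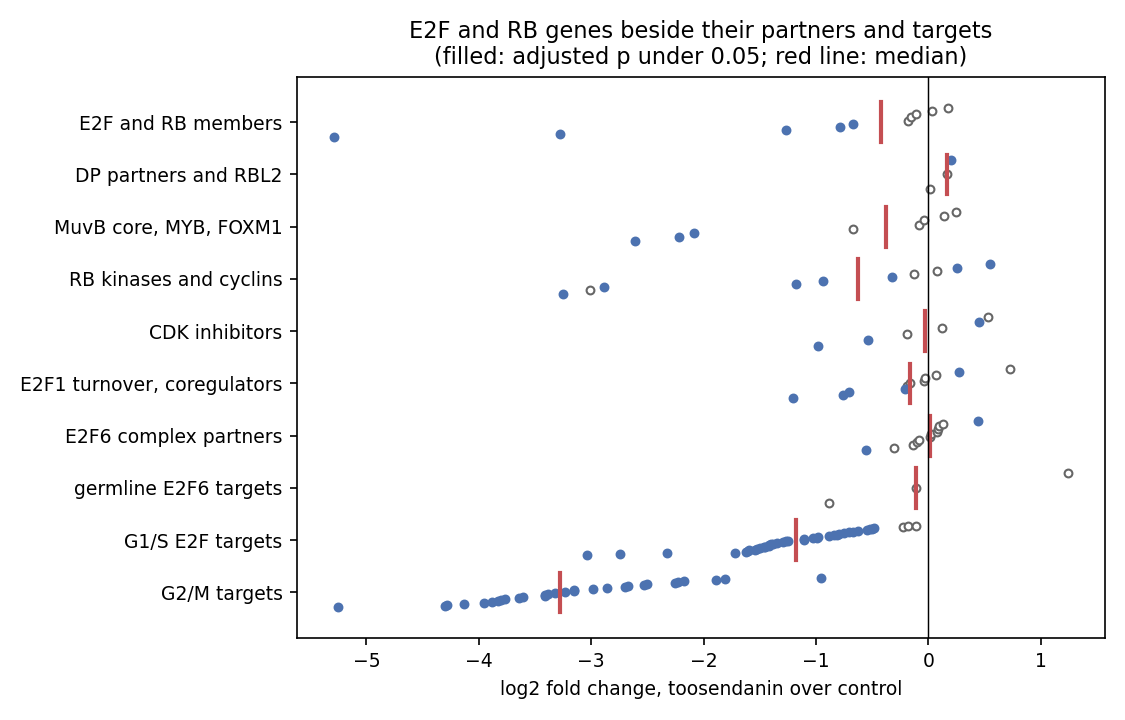
Log2 fold change, toosendanin over control (x axis), of each tested gene in the lists (rows); filled points passed an adjusted p of 0.05 and the red line is the median of the row. The E2F and RB members spread from -5.29 to 0.18, the G1/S targets reach down to -3.04, and the G2 and M targets between -5.25 and -0.95.

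By size of change alone, among genes in the upper 50% of means, the nearest to E2F8 in the authors' deposited table were the kinetochore motor CENPE at -4.28, then ASPM at -3.96, KIF4A at -3.90, HMMR at -3.89 and KIF2C at -3.82, and 0 lay within 1 of it on the log2 scale. E2F8 itself falls under that limit on means, and among tested genes of any mean 167 lay within 1 of it, among them CENPA at -5.25 ± 2.0 in the authors' deposited table, 0.041 away. Those nearest to E2F1 were IFT122, PASK, MZT2B, GCFC2 and PTPRG, all at -0.67 in the authors' deposited table. This likeness rests on 1 contrast, so many genes share a value as moderate as that of E2F1. The liver markers of the labelled line were abundant: ALB, APOA1, APOB, AFP and TTR had mean normalized counts between 5546 and 411979 in the authors' deposited table. PTPRC of blood cells and COL1A1 of fibroblasts were listed at 0, PECAM1, VWF and PDGFRB were between 6.94 and 36.1, and CD68, a lysosomal protein also used to mark macrophages, was at 1426. Of the 11 markers, PTPRC and COL1A1 had no test and 5 of the others were called, where 31.4% of all tested genes were called. ALB at 0.52 ± 0.08, APOA1 at 0.58 ± 0.06 and CD68 at 1.41 ± 0.09 were higher after toosendanin in the authors' deposited table. AFP at -0.29 ± 0.06 and PDGFRB at -2.25 ± 0.87 were lower in it. The part of these markers in the values of the members was not tested.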

How the data were processed

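Libraries came from a stranded mRNA kit with molecular identifiers, per the labels' protocols, and the submitters' processing notes name HISAT2, StringTie and DESeq. The build and the region caller: not given in the sources used here. Per the file headers, the authors deposited a DESeq2 result: mean normalized counts (a depth-scaled signal), log2 fold changes, their standard errors, Wald scores, p-values and adjusted p-values. Which libraries entered that comparison is not given, so the summed inputs may come from the same libraries. The m6A file, per the file headers, holds read counts the authors summed over the libraries of a condition, a log2 fold change of IP over input, a p-value and an FDR. Neither holds values per library, so the planned edgeR fit was replaced by the deposited tests and no spread between libraries was computed. Expression p-values therefore reflect variation among libraries that may be technical replicates.

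Positive values mean higher after toosendanin. The direction was checked on 7947 genes with means in the upper 50%, where deposited fold changes and ratios of summed inputs correlated across genes (r = 0.94; genes are not independent replicates). The error implied by the m6A p-values matched a Poisson error on the 4 sums to within 1% in 99.5% of 45458 regions, and Poisson errors were used for m6A. Input ratios were centred by their median over genes, -0.50 on the log2 scale. The members and lists were chosen with earlier results of these data known. Named were all 10 members, their best counted regions, and list genes by adjusted p. Some list genes are not reported here. The Poisson test of the 4 sums, which the m6A alternatives use, was run on simulated Poisson counts, where many of the 2-fold changes put in were not called. Such counts hold counting error only, so the simulation cannot show how the test does under spread between libraries. Promoter windows and gene positions came from RefSeq tables of GRCh38.p14. E2F5 and E2F8 had no window, and that of RB1 began inside the gene. Alternatives are given in the closing section. Tools were scipy 1.17.1, pandas 2.3.3 and numpy 2.4.6 in Python 3.11.15.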

Additional observations from a re-analysis of the deposited data

How the results depend on the processing

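The count of 5 members called lower was 4 at an adjusted p under 0.01 and 5 with an adjustment over every gene with a p-value. It was 3 with a change of at least 2-fold (E2F2, E2F7 and E2F8) and 1 among the upper 50% of means, where 6 of the 10 members remained to be tested and E2F1 alone was called. The 0 called m6A regions stayed at 0 under all 7 alternatives. Of these, the adjustment over every region with a p-value was added after seeing the data and left the smallest adjusted p at 0.0555. An FDR under 0.01, and a test statistic divided by its spread over regions, could only lower a count, so neither could move it. Regions without an FDR entered only in that adjustment and with at least 10 reads in each sum, where 26 member regions remained. Summed inputs gave a value for 9 members, within 1 standard error of the deposited one for 6. E2F3, E2F5 and E2F7 differed by more, E2F7 at -2.26, and the cause was not tested. For genes in the 9 lists, 88 called genes became 80 at 0.01 and 59 at 2-fold. In single lists, at 2-fold 37 G1/S targets became 23, 7 kinases and cyclins 3, 5 turnover genes 1, 3 CDK inhibitors 0, 2 Polycomb partners 0 and 1 DP or pocket partner 0. At 0.01, 7 kinases and cyclins became 4, 5 turnover genes 3 and 1 partner, TFDP1, 0; the other list counts stayed within 1.5 times. The 7-base promoter letters, also added later, were found in 5 members in place of 4. No paired analysis was possible because the files give no values per library, and for the same reason no replicate could be left out. Depth limits E2F2, E2F7 and E2F8, whose input or normalized counts after toosendanin were the lowest of the members.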
